A study of Rattus norvegicus with 9 samples.

Results

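The genes described here are the Hox genes and a set of transcription factors known for limb identity, in rat knee tissue. Members were chosen by symbol: every gene named Hoxa, Hoxb, Hoxc or Hoxd with a number, together with Pitx1, Tbx4, Tbx5, Tbx15, Tbx18, Meis1, Meis2, Shox2, Prrx1, Prrx2, Lmx1b, En1 and Barx1. Of the 17602 genes listed in the deposited table, 46 met this rule. They were 33 Hox genes (10 in the HoxA cluster, 8 in HoxB, 7 in HoxC and 8 in HoxD) and 13 other transcription factors. Hoxa10, Hoxb1, Hoxb13, Hoxc12, Hoxc13 and Hoxd12 were not analysed here.

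Hox genes encode homeodomain transcription factors that lie in 4 chromosomal clusters, named HoxA to HoxD. Within a cluster, genes carry paralog numbers, and genes with low numbers are used toward the head end of the embryo and genes with high numbers toward the tail end and the tip of the limb. Adult fibroblasts are known to keep part of the Hox pattern of the site they came from. Pitx1 and Tbx4 are known for hindlimb identity, Tbx5 for forelimb initiation, and Meis proteins for the proximal limb and as DNA-binding partners of Hox proteins.

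RNA sequencing was performed on knee tissue of wild-type male Lewis rats aged 10 to 12 weeks, with 3 libraries in each of 3 groups. The intact group was synovium from around the medial meniscus without surgery. The sham group was the same synovium 1 week after the joint capsule had been opened and closed. In the pMx group, partial medial meniscectomy (pMx) had removed the anterior part of the medial meniscus of both knees, and the tissue regrowing there was sampled at 1 week with the surrounding synovium left out. The pMx libraries therefore differed from the others in tissue and in surgery together, and these cannot be told apart. The RNA integrity values that the study lists also rose from intact through sham to pMx without overlap, and their part in the results was not tested. The sources used here do not state whether animals were pooled for a library or whether libraries came from separate animals, so p-values measure only the spread between these libraries. These were bulk samples, in which fewer cells of a type and less RNA per cell cannot be told apart.

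Values are TPM (transcript abundances), which are scaled for transcript length and to the same total in every library. The number of reads behind them is unknown, so counting error could not be given. Differences are log2 fold changes on the log2(TPM + 1) scale, on which changes are smaller than in TPM itself, the more so the lower the level, and still visibly at several TPM. They were tested with limma over 16512 genes, each of them above 0 TPM in 3 or more libraries, and a gene was called at an adjusted p below 0.05. Of the 46 members, 44 were tested, and Hoxd1 and Hoxd13 were too rarely above 0.

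The summed TPM of 8 synovial fibroblast genes was 7146 to 9395 in intact, 8580 to 9379 in sham and 11920 to 13030 in pMx. These genes did not move together, as 4 were higher and 1 was lower in pMx than in sham. In mean TPM, Lum went from 2180 in sham to 7012 in pMx, and Dcn from 4683 to 2441. The pMx libraries were regenerating tissue with the surrounding synovium left out, so this sum is not a marker of their label. Intact replicate 3 stood apart by its skeletal muscle genes, with a summed level of 40200 TPM against 56.93 and 189.4 in the other intact libraries, 212.6 to 2612 in sham and 82.34 to 2714 in pMx. Other cell type markers moved with the groups. All 7 adipocyte genes were lower in pMx than in sham, with summed levels of 342.1 to 524.9 TPM in pMx, 4492 to 4837 in sham and 3422 to 7295 in intact. All 5 Schwann cell genes were lower too, at 73.51 to 90.28 TPM in pMx, 310.8 to 387.9 in sham and 251.9 to 457.0 in intact. Of 8 fibrocartilage and chondrocyte genes, 4 were higher in pMx than in sham. All 8 summed to 1833 to 1969 TPM in pMx, 809.1 to 863.2 in sham and 478.1 to 1017 in intact. The largest part was Comp, which was not called (limma, adjusted p = 0.0865). These genes did not all move together, as 6 had a positive and 2 a negative log2 fold change. The latter were Col2a1 (mean 0.953 TPM in sham, 0.697 in pMx) and Chad (17.3 and 0.153), and neither was called. Endothelial genes (3 of 6 lower in pMx than in sham, 2 of 6 lower in sham than in intact) summed to 439.2 to 558.4 TPM in pMx, 555.8 to 589.5 in sham and 670.9 to 872.3 in intact. Macrophage genes (3 of 6 higher in sham than in intact) summed to 298.2 to 495.7 TPM in intact, 531.3 to 639.1 in sham and 564.6 to 664.4 in pMx. Lymphocyte genes summed to at most 21.9 TPM and keratinocyte genes to at most 2.78 TPM in any library. The part of these differences in the results below was not tested.

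Promoter sequences are shown for some of the members. For 26 of the 46 members an entry was matched by gene identifier in RefSeq (build GRCr8, which is later than the build the submitters list). The 250 bases before the annotated start were used. The 3 HoxD genes below were the most abundant HoxD genes in the pMx tissue and lie side by side on chromosome 3: Hoxd8 at chr3:80014973-80015222, Hoxd9 at chr3:80007756-80008005 and Hoxd10 at chr3:80001697-80001946, all on the plus strand. Capitals mark CG dinucleotides, of which there were 38, 20 and 21.

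Hoxd8: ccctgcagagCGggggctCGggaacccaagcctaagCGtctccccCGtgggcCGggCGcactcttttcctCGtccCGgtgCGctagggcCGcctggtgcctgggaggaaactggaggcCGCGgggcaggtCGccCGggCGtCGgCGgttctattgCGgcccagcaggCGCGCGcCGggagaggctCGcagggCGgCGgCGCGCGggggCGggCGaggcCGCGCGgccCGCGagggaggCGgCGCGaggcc

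Hoxd9: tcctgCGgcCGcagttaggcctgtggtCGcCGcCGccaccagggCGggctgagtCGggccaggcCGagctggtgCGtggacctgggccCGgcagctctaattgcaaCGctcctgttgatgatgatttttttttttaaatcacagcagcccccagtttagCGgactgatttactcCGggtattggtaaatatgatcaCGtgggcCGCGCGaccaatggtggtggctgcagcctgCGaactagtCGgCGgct

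Hoxd10: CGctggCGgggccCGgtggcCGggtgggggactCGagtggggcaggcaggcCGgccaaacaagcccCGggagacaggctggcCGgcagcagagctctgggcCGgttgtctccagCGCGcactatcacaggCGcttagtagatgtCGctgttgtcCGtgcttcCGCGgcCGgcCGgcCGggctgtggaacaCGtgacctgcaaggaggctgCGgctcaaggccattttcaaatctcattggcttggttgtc

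Hoxa2 (chr4:82595693-82595942, minus strand) and Tbx4 (chr10:71228306-71228555, plus strand) are shown as members that were lower in pMx. Capitals mark matches on either strand to TGATTNAT, a Hox-Pbx motif, or to TGACAG, a Meis motif. Hoxa7, also lower in pMx, matched neither motif. Tbx5, which was lower, and Lmx1b, which was higher, each had a TGACAG match. The Hoxd8, Hoxd9 and Hoxd10 windows matched neither motif. Whether matches go with the direction of change was not tested.

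Hoxa2: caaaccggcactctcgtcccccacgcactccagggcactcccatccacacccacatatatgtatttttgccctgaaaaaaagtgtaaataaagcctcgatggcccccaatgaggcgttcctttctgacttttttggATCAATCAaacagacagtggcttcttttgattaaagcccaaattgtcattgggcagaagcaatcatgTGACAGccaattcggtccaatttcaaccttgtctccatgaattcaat

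Tbx4: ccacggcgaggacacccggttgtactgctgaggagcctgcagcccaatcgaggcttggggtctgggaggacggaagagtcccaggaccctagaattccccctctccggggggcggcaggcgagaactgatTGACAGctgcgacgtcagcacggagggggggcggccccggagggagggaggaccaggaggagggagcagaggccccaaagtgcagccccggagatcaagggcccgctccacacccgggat

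The GC content of these windows was 78.8% for Hoxd8, 60.0% for Hoxd9, 67.2% for Hoxd10, 45.2% for Hoxa2 and 68.4% for Tbx4. Across all promoters the median GC content was 52.0% with 6 CG dinucleotides, and across the 26 member promoters it was 63.6% with 19. TGATTNAT was present in 2 of the 26 member promoters (Hoxa2 and Hoxd11) and in 2.81% of all 27457 promoters. TGACAG was present in 6 of the 26 and in 15.62% of all, TAATTA (the homeodomain core) in 1 and 4.94%, and TATAAA (the TATA box) in 2 and 13.09%. TAATTA and TGATTNAT can share bases. A match describes the letters in the window and does not show binding.

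The members were expressed at levels from near 0 to above 100 TPM. Over the 9 libraries, 11 members had a mean above 10 TPM, 30 a mean of 1 to 10 TPM and 5 a mean below 1 TPM, and 43 were above 0 in every library. The highest levels were those of Prrx1 and Prrx2, homeobox genes of limb and connective tissue mesenchyme, at 136 ± 7.1 and 87.1 ± 4.01 TPM in intact synovium (SD, n = 3). Hoxd8 at 36.7 ± 2.79 TPM was the most abundant Hox gene, followed by Hoxd9 at 17.2 ± 0.586 and Hoxc10 at 17.1 ± 4.2 TPM, and these last levels overlapped. The distal genes Hoxa13, Hoxd11 and Hoxd13 were below 1 TPM in every library. Pitx1 was at 22.32 TPM or more in every library.

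**Figure D1:**
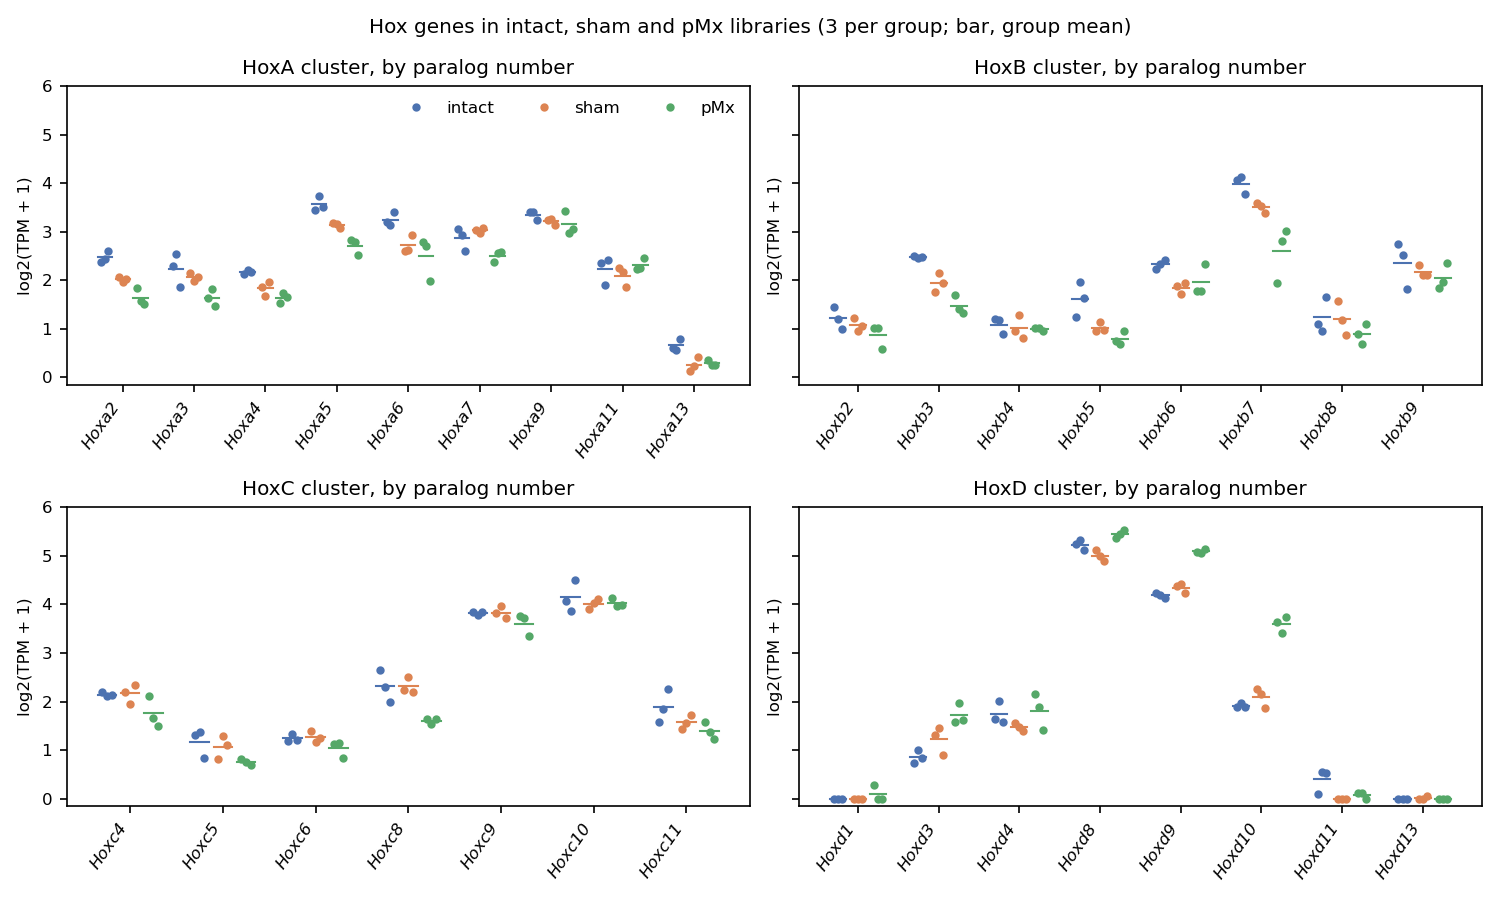
Levels of 32 of the 33 Hox genes by cluster and paralog number, as log2(TPM + 1), with 1 point for each library and a bar at each group mean. Hoxd8, Hoxd9 and Hoxd10 stand higher in the pMx libraries than in the sham libraries, and Hoxd1, Hoxd11 and Hoxd13 stay near 0.

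The comparison of pMx with sham asks how the regenerating tissue differed from synovium of operated knees at the same time. Of 6 HoxD genes tested, 4 were called and were higher in pMx (Hoxd3, Hoxd8, Hoxd9 and Hoxd10), and of 25 Hox genes in the other clusters, 6 were called and were lower. Hoxd10 rose most, by 3.38-fold in mean TPM. Of the limb identity factors, Shox2, Lmx1b, Tbx18 and Prrx2 rose, and Meis2, Tbx4 and Tbx5 fell. In all, 17 of 44 members were called (38.6%), 8 higher and 9 lower, where 36.6% of all genes tested were called, 17.7% higher and 18.9% lower. The share called was thus near the background. The groups did not overlap for 24 of 44 members, against 56.1% of all genes. The median log2 fold change of the members was -0.15, and that of all genes was -0.01.

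Hoxd10, a gene known for hindlimb patterning, was at 2.70, 2.90 and 2.70 TPM in intact, 3.79, 3.46 and 2.66 in sham and 11.54, 9.59 and 12.38 in pMx libraries. Every pMx library was above every other library. The means were 3.30 ± 0.581 TPM in sham and 11.2 ± 1.43 in pMx, with a log2 fold change of 1.50 (SE 0.13, adjusted p = 8.92e-05). Hoxd9, its neighbour, was at 17.78, 17.24 and 16.61 TPM in intact, 19.77, 20.58 and 17.88 in sham and 32.86, 32.49 and 34.34 in pMx. The pMx libraries were again above all others, and the log2 fold change against sham was 0.75 (SE 0.07, adjusted p = 0.000112). Hoxd8 was at 36.91, 39.37 and 33.81 TPM in intact, 33.81, 31.16 and 28.70 in sham and 40.50, 42.90 and 45.40 in pMx, a log2 fold change of 0.45 against sham (SE 0.08, adjusted p = 0.0033). Its pMx libraries were also above every intact library, though that difference was not called (log2 0.22, adjusted p = 0.0524).

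The other HoxD genes were low. Hoxd3 was at 0.67, 0.99 and 0.79 TPM in intact, 1.47, 1.76 and 0.87 in sham and 1.98, 2.93 and 2.08 in pMx, so that pMx was above both other groups. Its log2 fold change against sham was 0.50 (SE 0.17, adjusted p = 0.0435). That call was lost with a pseudocount of 0.1, with a minimum mean of 1 TPM, with only the 6 libraries of the comparison and without intact replicate 1 or 2, sham replicate 1 or 3 or any pMx library. Hoxd4 was at 1.61 to 1.94 TPM in sham and 1.65 to 3.44 in pMx, which overlapped (adjusted p = 0.206). Hoxd11 was at 0.07, 0.47 and 0.45 TPM in intact, listed at 0 in every sham library and at 0.08, 0.08 and 0 in pMx. Hoxd1 was above 0 only in pMx replicate 1 (0.21 TPM), and Hoxd13 only in sham replicate 3 (0.04 TPM). Of 6 HoxD genes tested, 4 were higher and 0 lower (66.7% called, against 36.6% of all genes, 17.7% higher and 18.9% lower). The 4 include Hoxd3, whose call was lost as given above.

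As sums, the 8 HoxD genes reached 60.24, 64.0 and 56.36 TPM in intact, 60.78, 58.74 and 51.76 in sham and 90.61, 90.67 and 95.85 in pMx. The summed level of all 33 Hox genes was 189 ± 4.3 TPM in intact, 163 ± 5.79 in sham and 178 ± 2.06 in pMx. HoxD supplied 31.8% ± 1.33 of that sum in intact, 34.9% ± 1.71 in sham and 52.0% ± 1.80 in pMx (SD, n = 3). Hoxd8, Hoxd9 and Hoxd10 alone made up 33.0% in sham and 49.1% in pMx. HoxA supplied 27.5%, 25.6% and 19.1% of the sum in intact, sham and pMx, and HoxB 17.9%, 14.6% and 9.42%, and for both the 3 groups did not overlap. HoxC supplied 22.8%, 24.9% and 19.5%, with pMx below sham. The summed HoxC TPM itself overlapped between pMx (30.76 to 38.6) and sham (38.46 to 42.15). The shares are parts of 1 sum, so a larger HoxD share makes the others smaller. These sums are descriptions without a test.

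**Figure D2:**
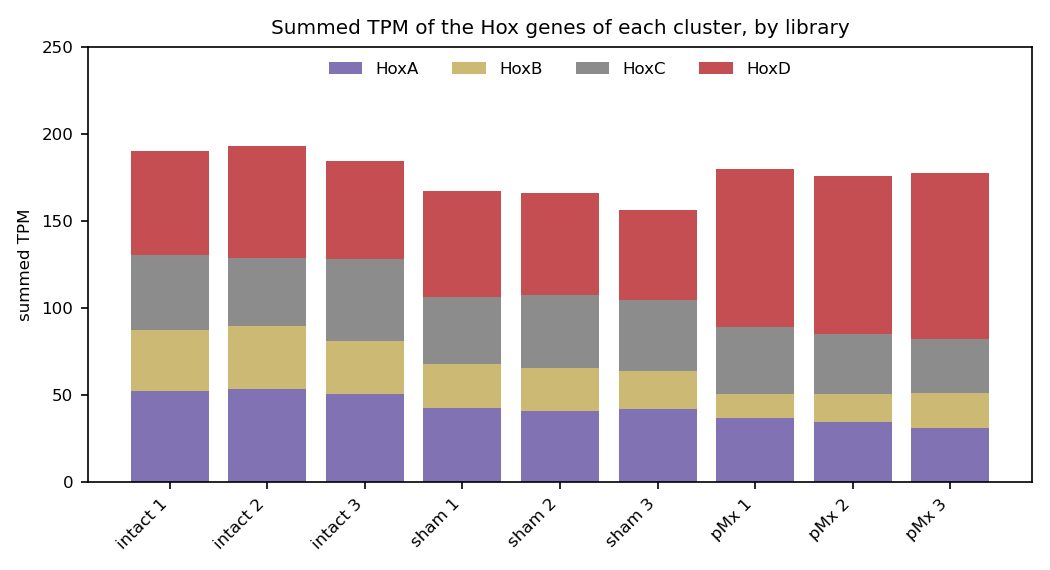
Summed TPM of the Hox genes of each cluster, stacked in 1 bar for each library. The HoxD segments measure 90.61 to 95.85 TPM in pMx and at most 64.0 TPM in all other libraries, and the HoxA and HoxB segments are smallest in pMx.

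Outside HoxD, 6 of 25 Hox genes were lower in pMx than in sham and 0 higher by limma at an adjusted p below 0.05, a share of 24.0% called against 36.6% of all genes (18.9% lower). The 6 had paralog numbers of 8 or below, and were 6 of the 18 such genes (33.3%), of which 17 had a negative log2 fold change (median -0.32). Of the 7 with numbers 9 to 13, 0 were called, with a median log2 fold change of -0.05. This split of the genes outside HoxD at number 8 was not among the planned groupings, and the difference between its parts was not tested. The adipocyte and Schwann cell genes were also lower in pMx, as given above.

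Hoxb7 was at 15.67, 16.47 and 12.66 TPM in intact, 11.01, 10.54 and 9.42 in sham and 2.86, 6.05 and 7.11 in pMx. All pMx libraries were below all others, although they spread more widely (SD 2.21 TPM against 0.817 in sham). The log2 fold change was -0.90 (SE 0.25, adjusted p = 0.0221), and the call was lost without sham replicate 1 or 2. Without pMx replicate 1, the lowest library, the log2 fold change was -0.58 (adjusted p = 0.019). Hoxc8 was at 5.25, 3.91 and 2.98 TPM in intact, 3.72, 4.72 and 3.57 in sham and 2.14, 1.91 and 2.11 in pMx. The pMx libraries were the lowest and lay close together, and the log2 fold change was -0.71 (SE 0.17, adjusted p = 0.0109). Both genes are trunk-level Hox genes in the embryo.

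In HoxA, Hoxa7 was at 7.19, 6.84 and 7.44 TPM in sham and 4.18, 4.86 and 4.97 in pMx, with the groups apart (log2 -0.53, SE 0.13, adjusted p = 0.0126, lost without pMx replicate 1). Hoxa5 was at 9.97, 12.39 and 10.34 TPM in intact, 8.04, 7.93 and 7.44 in sham and 6.08, 5.87 and 4.74 in pMx. It stepped down from group to group without overlap, and the difference of pMx from sham was -0.43 (SE 0.12, adjusted p = 0.0196). That call was lost without sham replicate 1 or 2 or pMx replicate 3. Hoxa2, the Hox gene of the second pharyngeal arch, was at 4.17, 4.43 and 5.10 TPM in intact, 3.19, 2.89 and 3.10 in sham and 2.60, 1.97 and 1.84 in pMx. Hoxb3 was at 4.68, 4.50 and 4.56 TPM in intact, 2.36, 3.42 and 2.82 in sham and 2.25, 1.65 and 1.49 in pMx. These genes stepped down in the same way, with log2 fold changes of pMx against sham of -0.38 for Hoxa2 (adjusted p = 0.0334) and -0.47 for Hoxb3 (adjusted p = 0.0254). The calls were lost without sham replicate 2 or 3 or pMx replicate 2 or 3, and for Hoxa2 without sham replicate 1.

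The other Hox genes outside HoxD were not called in this comparison. The posterior genes Hoxc10 (15.2 ± 1.22 TPM in sham, 15.4 ± 1.06 in pMx), Hoxc9 (13.3 ± 1.22 and 11.3 ± 1.87), Hoxa9 (8.26 ± 0.425 and 7.99 ± 1.54) and Hoxa11 (3.30 ± 0.591 and 3.97 ± 0.436) overlapped between the groups. In RefSeq, Hoxa3 overlaps Hoxa4, Hoxa5 and Hoxa6, and Hoxc6 overlaps Hoxc4 and Hoxc5. In all, 17 members overlap another annotated gene, Hoxb3, Tbx4, Meis2 and Shox2 among them. The gene that overlaps Shox2 is protein-coding and is also among the listed genes. Whether counting used the strand is not given in the sources used here, so the values of overlapping genes are uncertain.

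Among the limb identity factors, the TALE homeobox gene Meis2 was at 4.97, 6.11 and 5.32 TPM in intact, 6.55, 6.55 and 7.2 in sham and 3.13, 3.02 and 2.26 in pMx. The pMx libraries were the lowest, with a log2 fold change of -1.04 against sham (SE 0.12, adjusted p = 0.000328). Its relative Meis1 did not pass the test (4.24 ± 0.741 TPM in sham, 4.41 ± 0.924 in pMx, adjusted p = 0.865). Tbx4, the T-box gene of the hindlimb, was at 8.33, 6.61 and 6.42 TPM in intact, 5.60, 5.09 and 6.72 in sham and 2.75, 2.57 and 3.10 in pMx. All pMx libraries were below all others (log2 -0.83 against sham, SE 0.13, adjusted p = 0.00149). Tbx5, its forelimb counterpart, was measured at a similar level, at 6.41, 8.03 and 7.41 TPM in intact, 5.27, 4.52 and 6.14 in sham and 2.64, 4.43 and 2.31 in pMx. The pMx and sham groups were apart by a narrow margin for Tbx5 (log2 -0.64, SE 0.19, adjusted p = 0.0309). That call was lost without sham replicate 1 or 3 or pMx replicate 1 or 3. Pitx1, which acts upstream of Tbx4 in the hindlimb bud, was at 25.9 ± 1.79 TPM in sham and 23.7 ± 1.38 in pMx, which overlapped.

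Shox2, a homeobox gene of the proximal limb skeleton, was at 5.73, 8.38 and 7.87 TPM in intact, 4.43, 4.64 and 5.72 in sham and 8.02, 12.11 and 8.72 in pMx. It was higher in every pMx than in every sham library (log2 0.83, SE 0.18, adjusted p = 0.00766), and pMx overlapped with intact. Lmx1b, the dorsal limb gene, showed the same order, at 2.11, 1.40 and 1.92 TPM in intact, 0.93, 1.60 and 0.87 in sham and 2.72, 2.18 and 3.09 in pMx (log2 0.79 against sham, SE 0.16, adjusted p = 0.00581). Tbx18, a T-box gene of mesenchyme, was at 11.49, 11.02 and 11.73 TPM in sham and 18.14, 16.00 and 18.41 in pMx (log2 0.57, SE 0.09, adjusted p = 0.00148). Prrx2 was at 92.28, 103.73 and 107.46 TPM in sham and 138.10, 124.51 and 147.17 in pMx (log2 0.43, SE 0.08, adjusted p = 0.00368). Its relative Prrx1 was at 145 ± 11.9 and 149 ± 8.79 TPM and was not called, nor was Tbx15 at 39.2 ± 0.711 and 42.1 ± 3.35 TPM. Of 8 synovial fibroblast genes, 4 were higher and 1 was lower in pMx than in sham.

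**Figure D3:**
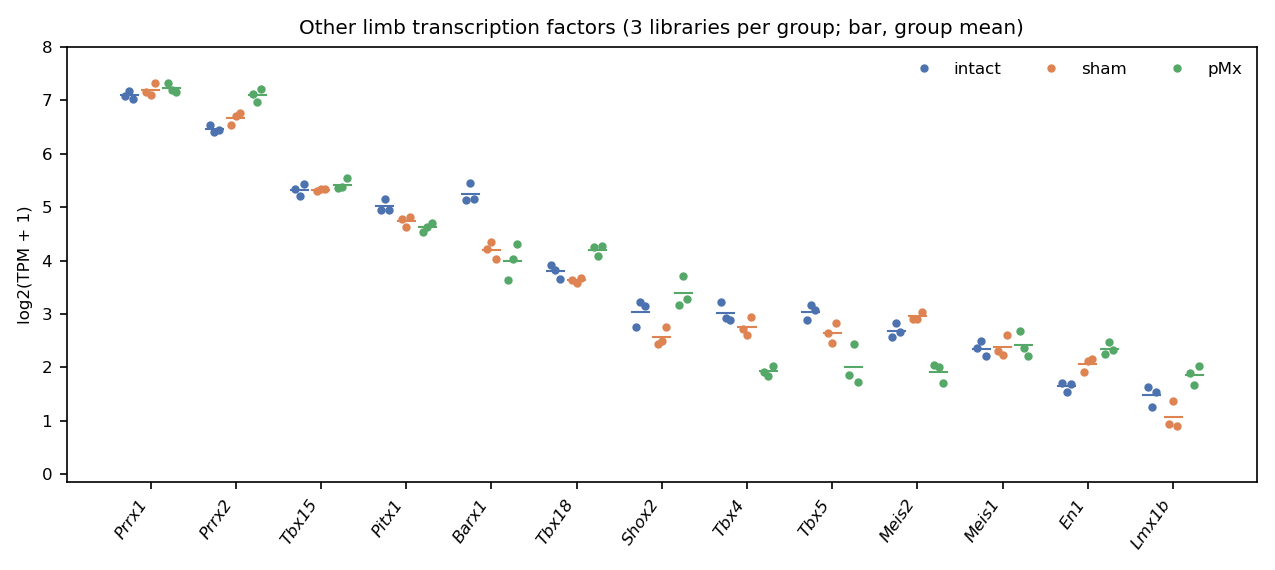
Levels of the 13 limb identity factors as log2(TPM + 1), with 1 point for each library and a bar at each group mean. Meis2, Tbx4 and Tbx5 are lowest in the pMx libraries, Prrx2 and Tbx18 are highest there, and Barx1 is highest in the intact libraries.

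The cutoffs the study used for a DEG (differentially expressed gene) add to the call a log2 fold change beyond 1 in either direction. They were applied here to the limma results on the log2(TPM + 1) scale, and the study's own DEGs came from another analysis. With them there were 2 member DEGs between pMx and sham. On this scale Lmx1b (2.35-fold higher in mean TPM) and Tbx4 (2.07-fold lower) did not pass. Hoxd10 was higher, as were 3.36% of all genes, and Meis2 was lower, as were 4.85% of all genes (8.21% in both directions). Meis2 no longer passed the fold threshold without sham replicate 3 (log2 -0.997), which left 1 DEG, or without pMx replicate 3 (log2 -0.93). Hoxb7 passed it without pMx replicate 2 (log2 -1.01), which gave 3 DEGs, and without pMx replicate 3 (log2 -1.12), which gave 2. Of the 17 calls, 10 held under every alternative setting and without any 1 library: Hoxd8, Hoxd9, Hoxd10, Hoxc8, Meis2, Tbx4, Shox2, Lmx1b, Tbx18 and Prrx2. No called member reversed its direction, median-of-ratios rescaling included. The number of lower members was 5 without sham replicate 1, sham replicate 2 or pMx replicate 3.

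The comparison of sham with intact asks what joint surgery alone did to synovium after 1 week. Few members changed. Barx1, a homeobox gene known from joint and stomach mesenchyme, fell, as did Hoxa2, Hoxa5, Hoxb3 and Hoxa13, and En1 rose. These were 6 of 44 members (13.6%), 1 higher and 5 lower, where 12.7% of all genes were called, 6.73% higher and 5.97% lower. The groups did not overlap for 20 of 44 members, a larger share than the 30.6% of all genes. The median log2 fold change was -0.17 for the members and -0.02 for all genes.

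Barx1 was at 34.14, 42.95 and 34.41 TPM in intact, 17.55, 19.29 and 15.32 in sham and 11.37, 15.26 and 18.95 in pMx. Every intact library was above every operated one, while sham and pMx overlapped. The log2 fold change of sham against intact was -1.05 (SE 0.18, adjusted p = 0.0102), which made Barx1 the 1 member DEG in this comparison, against 1.96% of all genes (1.42% higher and 0.533% lower). It was called under every alternative, with adjusted p of up to 0.0398, but its log2 fold change was -0.95 without intact replicate 2 and -0.97 without sham replicate 3, each of which left 0 DEGs.

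The other 5 calls were closer to the threshold. The log2 fold changes of sham against intact were -0.45 for Hoxa2 (adjusted p = 0.0397), -0.43 for Hoxa5 (adjusted p = 0.0461) and -0.54 for Hoxb3 (adjusted p = 0.0362), from the levels given above. Hoxa13, a gene of the limb tip, was at 0.53, 0.48 and 0.74 TPM in intact and 0.09, 0.18 and 0.33 in sham (log2 -0.40, adjusted p = 0.0273). En1, known for the ventral limb ectoderm and for dermal fibroblasts, was at 2.29, 1.91 and 2.22 TPM in intact, 2.75, 3.33 and 3.46 in sham and 3.75, 4.59 and 4.04 in pMx (log2 0.41 for sham against intact, adjusted p = 0.0446). It stepped up from group to group without overlap. With only the 6 libraries of the comparison the count was 1. The call of Hoxa2 was lost without any single library other than intact replicate 1 and pMx replicate 1, that of Hoxa5 without any other than intact replicate 3 and pMx replicate 3, that of Hoxb3 without any other than intact replicate 3, pMx replicate 1 and pMx replicate 3, that of En1 without any other than intact replicate 3, and that of Hoxa13 without sham replicate 1 or 2. Without single libraries the count ranged from 1 to 6: it was 1 without sham replicate 1 or 2, and 2 without intact replicate 2, sham replicate 3 or pMx replicate 2. Without intact replicate 3, the library with high muscle genes, it was 6. No HoxC or HoxD gene of the 7 and 6 tested was called.

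The comparison of pMx with intact shares its libraries with both comparisons above and is not independent of them. Here 25 of 44 members were called (56.8%), 6 higher and 19 lower, where 50.6% of all genes were called, 23.4% higher and 27.1% lower. The groups did not overlap for 28 of 44 members, against 57.5% of all genes. The median log2 fold change was -0.35 against -0.03 for all genes. Of 10 HoxA genes 8 were lower, of 8 HoxB genes 3, and of 7 HoxC genes 2, and 0 in these clusters were higher. In HoxD 3 of 6 were higher (Hoxd3, Hoxd9 and Hoxd10) and Hoxd11 was lower, from a mean of 0.33 to 0.0533 TPM. Without intact replicate 3 the count was 26.

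In this comparison Hoxd10 rose by 4.04-fold in mean TPM (log2 1.69, SE 0.13, adjusted p = 1.74e-05). Hoxd9 rose by 1.93-fold (log2 0.91, SE 0.07, adjusted p = 1.48e-05). Hoxb7 fell from 14.9 ± 2.01 to 5.34 ± 2.21 TPM (log2 -1.39, SE 0.25, adjusted p = 0.00184). Hoxb3 fell from 4.58 ± 0.0916 to 1.80 ± 0.401 TPM (log2 -1.01, adjusted p = 0.000338), and Hoxb5 from 2.12 ± 0.77 to 0.737 ± 0.172 TPM (log2 -0.82, adjusted p = 0.00394). In HoxA the largest differences on the log2(TPM + 1) scale were those of Hoxa5 (log2 -0.86), Hoxa2 (-0.83) and Hoxa6 (-0.75). In mean TPM these fell by 1.96-fold, 2.14-fold and 1.78-fold. Hoxa13 fell by 2.65-fold in mean TPM, from a low level of 0.583 to 0.22 TPM (log2 -0.37).

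Pitx1 was at 30.00, 34.52 and 29.87 TPM in intact, 26.48, 23.91 and 27.35 in sham and 22.32, 23.71 and 25.08 in pMx. The intact libraries were the highest, and the difference of pMx from intact was called (log2 -0.39, SE 0.08, adjusted p = 0.00428). Tbx4 (log2 -1.09), Tbx5 (-1.03), Barx1 (-1.26) and Meis2 (-0.77) fell, and En1 (0.71), Prrx2 (0.64) and Tbx18 (0.41) rose. The 6 member DEGs were Hoxd10, Hoxb3, Hoxb7, Tbx4, Tbx5 and Barx1, 1 of them higher and 5 lower, against 14.3% of all genes (6.4% higher and 7.89% lower). The number of DEGs was 4 without pMx replicate 3. Of the 25 calls 21 held under every alternative. Those of Hoxa3, Hoxa7, Hoxc11 and Hoxd11 were each lost with only the 6 libraries of the comparison. Hoxa3 was also lost without intact replicate 1 or 2 or pMx replicate 1 or 3, Hoxa7 without any library other than intact replicate 3, Hoxc11 (log2 -0.50, and -0.32 without intact replicate 3) without any other than intact replicate 1 and pMx replicate 1, and Hoxd11 without any other than intact replicate 1.

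**Figure D4:**
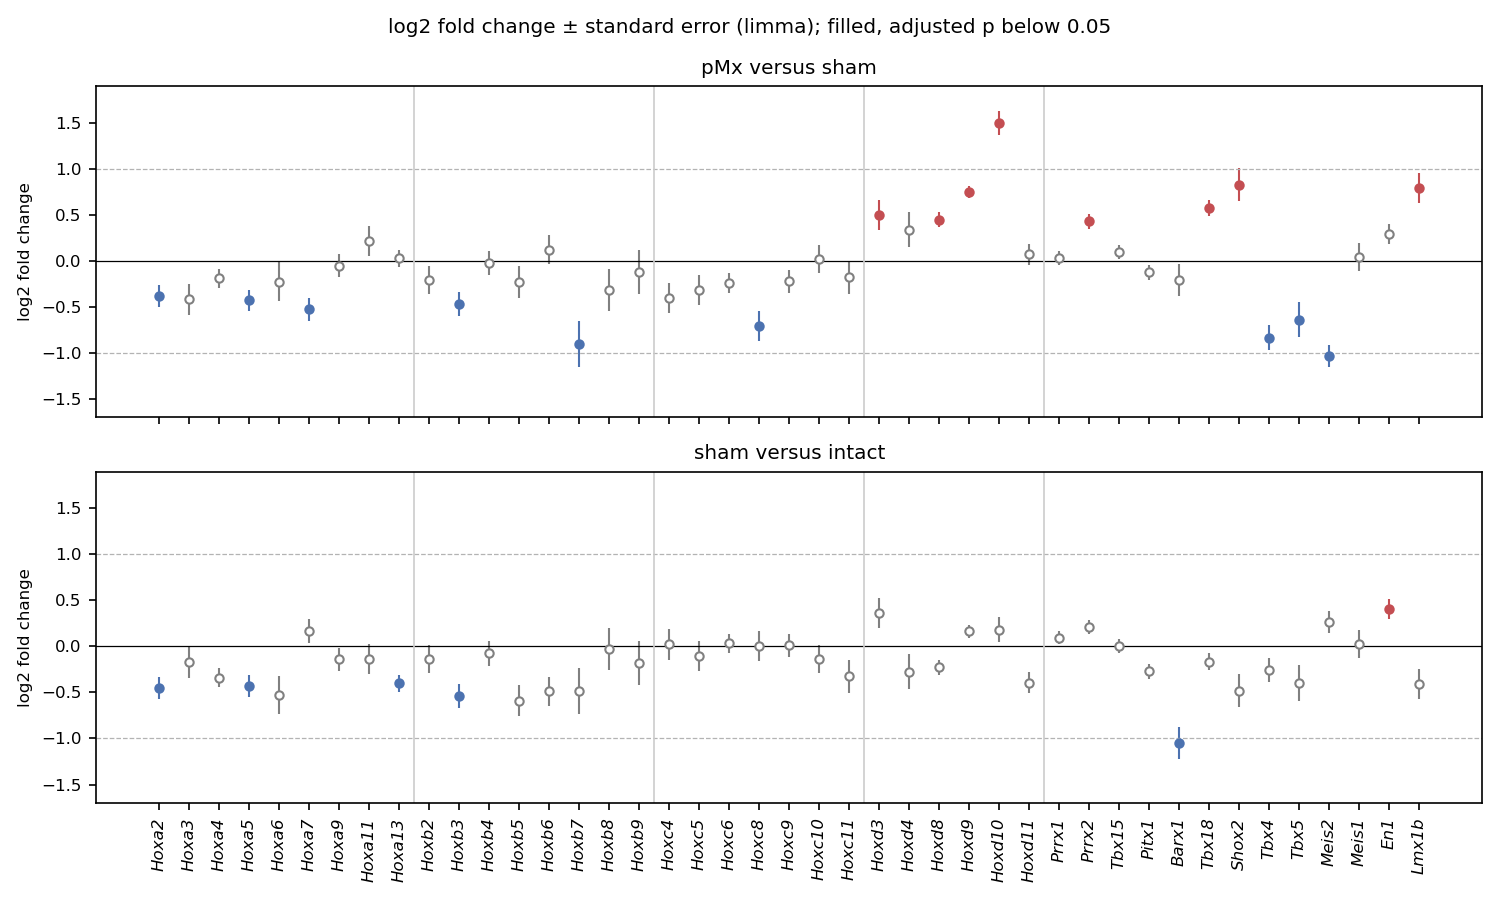
Log2 fold changes of 43 of the 44 members tested, on the log2(TPM + 1) scale, for pMx against sham and sham against intact, with standard errors and filled points for an adjusted p below 0.05. Hoxd10 (1.50) and Meis2 (-1.04) lie farthest from 0 for pMx against sham, and Barx1 (-1.05) for sham against intact.

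The genes flanking the clusters were looked up in RefSeq gene order after the members' values had been seen. Beside Hoxd1, Mtx2 was at 51.6 ± 2.73 TPM in sham and 61.0 ± 1.54 in pMx (log2 0.24, adjusted p = 0.00979), Hnrnpa3 was not called (adjusted p = 0.237), and Nfe2l2 was lower (log2 -0.38, adjusted p = 0.00724). Beside Hoxd13, Evx2 was too rarely above 0 to be tested, and Lnpk (log2 0.30, adjusted p = 0.304) and Atp5mc3 (-0.03, adjusted p = 0.901) were not called. For Hoxd8, Hoxd9 and Hoxd10 the log2 values were 0.45 to 1.50.

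Hox proteins bind DNA with partners of the TALE family. Of 7 other TALE genes, Pbx3 rose in pMx against sham (log2 0.34, adjusted p = 0.0251), and 2 fell, Pknox2 among them (log2 -0.72, adjusted p = 0.00374). The share called was 42.9%, near the 36.6% of all genes. Pknox2 was at 5.39 ± 0.709 TPM in sham and 2.87 ± 0.123 in pMx. In sham against intact 0 of 7 were called by limma, and in pMx against intact the counts were 1 higher and 2 lower (42.9%, against 50.6% of all genes).

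Of 32 tested genes for limb patterning signals and transcription factors, 11 rose and 11 fell in pMx against sham (68.8%, against 36.6% of all genes). Fgf10, a signal of limb outgrowth, was at 3.55, 3.61 and 9.26 TPM in sham and listed at 0 in all 3 pMx libraries, where no fold is given. Zbtb16, a regulator of proximal limb patterning, fell from 6.83 ± 1.22 to 0.547 ± 0.169 TPM (log2 -2.33, adjusted p = 3e-05), and the growth factor Bmp4 from 27.6 ± 4.13 to 6.54 ± 1.66 TPM (log2 -1.94, adjusted p = 7.25e-05). Irx5, an Iroquois homeobox gene, rose from 0.637 ± 0.412 to 3.72 ± 0.741 TPM (log2 1.54, adjusted p = 0.000323). In sham against intact 3 of 32 rose and 2 fell (15.6%, against 12.7% of all genes), with Twist1 (log2 0.61) and Twist2 (0.57) higher and the homeobox genes Msx2 (-0.95) and Msx1 (-0.38) lower. In pMx against intact 11 rose and 10 fell (65.6%, against 50.6% of all genes), among them Wnt5a, a distal limb signal, from 2.70 ± 0.412 to 11.1 ± 1.20 TPM.

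Retinoic acid, a signal that acts on Hox genes in the embryo, is made by Aldh1a enzymes, bound by Crabp proteins and broken down by Cyp26 enzymes. Of 17 tested genes of this pathway 7 fell and 1 rose in pMx against sham (47.1%, against 36.6% of all genes). Aldh1a3 was at 65.5 ± 8.70 TPM in intact, 37.2 ± 8.01 in sham and 4.31 ± 0.720 in pMx, and Aldh1a2 at 13.3 ± 1.26, 5.51 ± 0.229 and 1.37 ± 0.425 TPM. Both were lower in sham than in intact (log2 -0.82 and -1.13) and lower again in pMx than in sham (log2 -2.83 and -1.47, adjusted p = 2.63e-05 and 0.000131). Crabp2 was the 1 gene that rose, from 219 ± 12.9 TPM in sham to 423 ± 30.4 in pMx (log2 0.95, adjusted p = 5.2e-05), and it was at 124 ± 5.86 TPM in intact. In sham against intact 2 rose and 3 fell (29.4%, against 12.7% of all genes), Cyp26b1 among the latter (log2 -0.63, adjusted p = 0.0375), and in pMx against intact 1 rose and 11 fell (70.6%, against 50.6% of all genes). The adipocyte and Schwann cell genes fell between sham and pMx in the same libraries.

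Polycomb and Trithorax complexes are known to hold Hox genes silent or active. Of 21 chromatin regulators, 4 rose and 2 fell in pMx against sham, which is 28.6% against 36.6% of all genes. Cbx7, a reader subunit of Polycomb, was at 27.6 ± 2.86 TPM in intact, 16.4 ± 1.26 in sham and 2.74 ± 0.295 in pMx (log2 -2.22 for pMx against sham, adjusted p = 1.09e-05). Ezh2, the Polycomb methyltransferase, was at 4.69 ± 0.802, 7.61 ± 0.980 and 16.4 ± 1.16 TPM in the same order (log2 1.02 for pMx against sham, adjusted p = 0.000549). Cbx2 (log2 0.65) and the methyltransferase Dot1l (0.59) also rose in pMx against sham. In sham against intact Cbx7 fell (log2 -0.71, adjusted p = 0.00681) and Ezh2 rose (log2 0.60, adjusted p = 0.0245), 2 of 21 genes (9.52%, against 12.7% of all genes). In pMx against intact 7 rose and 5 fell (57.1%, against 50.6% of all genes).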

How the data were processed

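RNA from 9 libraries (3 intact, 3 sham, 3 pMx) was captured with oligo-dT and sequenced at BGI, and the authors deposited TPM values for 17602 genes. The submitters' processing notes list HISAT2 2.0.4 and mRatBN7.2. The counting tool, annotation, filters and strand setting are not given in the sources used here. TPM keeps no read numbers, so depth is unknown.

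Groups and replicate numbers came from the sample titles. Of the listed genes, 16512 exceeded 0 TPM in 3 or more libraries, and their log2(TPM + 1) values were fitted in R 4.3.3 with limma 3.58.1 (linear model with 1 mean per group over all 9 libraries, contrasts, empirical Bayes moderation with a trend). P-values are two-sided and were adjusted by Benjamini-Hochberg over all genes tested, separately for each of 3 comparisons. The calculation was tested on simulated data. Members and gene lists were chosen with earlier results of these data known. Any member may be named, and of each further list up to 4 called genes with the largest fold change, or all where a count was 5 or fewer. A few genes that this rule covers are counted but not reported here. Flanking genes were chosen by position after the values were seen. Of 11 Hox cluster noncoding RNA symbols, 0 matched. All 46 member identifiers were found in the RefSeq gene table of GRCr8, used for names, gene order and overlaps only. Alternatives were no filter, a minimum mean of 1 TPM, a pseudocount of 0.1, rescaling by the median of ratios, no trend, a replicate block, only the 6 libraries of a comparison and leaving out each library.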

Additional observations from a re-analysis of the deposited data

How the results depend on the processing

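For pMx against sham, 17 members were called (8 higher, 9 lower), and leaving out 1 library gave 12 to 18 (7 to 8 higher, 5 to 10 lower). For sham against intact, 6 were called (1 higher, 5 lower). The replicate block gave 2 (0 higher, 2 lower), the fit on 6 libraries gave 1 (0 higher, 1 lower), a pseudocount of 0.1 or no filter gave 0 higher, and leaving out 1 library gave 1 to 6 (0 to 1 higher, 1 to 6 lower). For pMx against intact, 25 were called (6 higher, 19 lower), and leaving out 1 library gave 22 to 26 (6 to 7 higher, 15 to 20 lower). With a pseudocount of 0.1 the member DEGs numbered 5 for pMx against sham (2 with a pseudocount of 1), 3 for sham against intact (1) and 12 for pMx against intact (6), and leaving out 1 library gave 1 to 3, 0 to 1 and 4 to 6. A smaller pseudocount enlarges fold changes, most for genes at a few TPM or less. With the replicate block 14, 2 and 23 members were called, and those lost were Hoxa2, Hoxb3 and Tbx5 for pMx against sham (adjusted p = 0.0502 to 0.0563, limma), Hoxa2, Hoxa5, Hoxb3 and En1 for sham against intact (0.0531 to 0.0727) and Hoxa7, Hoxc11 and Hoxd11 for pMx against intact (0.0587 to 0.0763), where Hoxb2 was called in addition. Whether libraries with the same number share more than that number is not stated in the sources used here. After each group mean was subtracted, 2 libraries with the same number correlated at 0.03 to 0.48 for pMx with sham. The values were -0.49 to 0.00 for sham with intact and -0.66 to -0.38 for pMx with intact. In these comparisons 5, 0 and 0 of 6 libraries correlated best with their own number. Whether pMx and sham libraries shared a factor by number was not tested. No called member reversed its direction under any alternative run. In each left-out fit the group with 2 libraries shares the spread of the others. The depth of the libraries is unknown, so values below about 1 TPM carry a counting error that could not be given.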

Other observations

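Ratios between members of the same library do not depend on the scaling of TPM to a fixed total. The ratio of Hoxd10 to Hoxd9 TPM was 0.152, 0.168 and 0.163 in intact, 0.192, 0.168 and 0.149 in sham and 0.351, 0.295 and 0.361 in pMx libraries, so that the pMx libraries lay above all others. The ratio of Hoxd9 to Hoxd8 was 0.470 ± 0.0285 in intact, 0.623 ± 0.0379 in sham and 0.775 ± 0.0315 in pMx (SD, n = 3), and the 3 groups did not overlap. The ratio of Prrx2 to Prrx1 was 0.644 ± 0.0502 in intact, 0.698 ± 0.0597 in sham and 0.920 ± 0.0990 in pMx, with pMx above the others. The ratio of Tbx4 to Tbx5 overlapped between all groups, at 0.823 to 1.30 in intact, 1.06 to 1.13 in sham and 0.580 to 1.34 in pMx.

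By paralog number, genes 9 to 13 made up 37.6% ± 2.85 of the summed Hox TPM in intact, 41.9% ± 0.959 in sham and 49.6% ± 1.54 in pMx libraries. Outside HoxD, genes 1 to 8 summed to 78.2 ± 4.65, 60.4 ± 0.678 and 41.6 ± 1.21 TPM without overlap, and genes 9 to 13 to 50.8 ± 4.22, 45.7 ± 1.40 and 43.8 ± 3.23 TPM, which overlapped. These values are descriptions and were not tested, and the split of genes outside HoxD into 1 to 8 and 9 to 13 was not planned.

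Beside Hoxa13, Hibadh was at 53.3 ± 1.02 TPM in sham and 29.3 ± 2.88 in pMx (limma, log2 -0.84, adjusted p = 0.000272) and Tax1bp1 at 126 ± 8.40 and 92.6 ± 1.05 TPM (log2 -0.44, adjusted p = 0.00156). These genes were chosen by their position beside the cluster, after the members' values had been seen.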
